A study of Nothobranchius furzeri with 12 samples.

Results

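In the intestine of the African turquoise killifish (Nothobranchius furzeri), 51 of the 25475 genes in the count table were highest in old fish kept on intermittent fasting and lay at similar, lower levels in adult fish and in old fish fed without restriction. These 51 genes, called members here, were chosen by their counts in 11 libraries, so their difference between the groups is a description and was not tested. The unit of level is CPM, the count of a gene divided by the total of its library and multiplied by 1000000. A member had a mean of at least 1 CPM in the 3 fasted libraries used, and at least 2 times the mean of each other group. Its value in each of these 3 libraries lay above all 8 libraries of the other groups. The means of the other groups were within 1.5-fold of each other. For these ratios of means, 0.1 CPM was added to each mean. Of the 12 libraries, 1 library of fasted fish with few counts, W20 IF replicate 4, played no part in the choice. Most members did not lie above the 8 libraries of the other groups there, as set out below. The methods of the study mention a fasted sample that did not pass the quality checks, and whether it is replicate 4 as deposited is not stated. They count more W10 and W20 AL fish than the 4 libraries of each used here. For W20 IF they count 4 fish after leaving out the sample that did not pass.

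Each group held 4 libraries of poly(A) RNA from whole intestines of wild-type male fish of the strain GRZ, housed singly from sexual maturation on (the methods of the study name the small intestine). W10 fish were killed at 10 weeks of age, as adults, and W20 AL fish at 20 weeks, as old fish, and both were fed Chironomus larvae ad libitum. W20 IF fish were also killed at 20 weeks and received food every other day from the age of 10 weeks. W20 IF thus differed from W20 AL in diet, and from W10 in both diet and age. There was no group of adult fish on intermittent fasting, and the labels do not say whether the fasted fish were killed on a day with or without food. The 11 deeper libraries held 23226098 to 26986542 counts, whereas W20 IF replicate 4 held 1512262, 17-fold below the median of the other 3 libraries of its group. A count of 0 allows a level of up to 0.111 to 0.129 CPM in the deeper libraries and of up to 1.98 CPM in replicate 4, which are the CPM of 3 counts and cover counting error only. The labels do not say how the libraries of a group relate to cohorts or extractions, so that p-values measure the spread between these libraries.

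Whole intestine is a mixture. Its mucosa carries absorptive enterocytes and mucus-secreting goblet cells, renewed by stem cells between and at the mucosal folds, over layers of connective tissue, smooth muscle, nerves and blood vessels. In vertebrates the intestinal epithelium is known to adjust to the supply of food: without nutrients in the lumen, enterocytes draw more on stored fat, fewer new cells are made, and the mucosa becomes thinner, and these states turn back with feeding. In RNA from whole tissue, fewer cells of a type and less RNA per cell cannot be told apart. The file gives Ensembl identifiers only and does not pair them with gene names. The table of 38438 RefSeq genes at hand held no Ensembl identifiers, so no match was possible. No member could therefore be given a name or a role. Lists of marker genes and of pathway genes could not be applied for the same reason, nor could the tissue named in the labels be checked against its markers. Of the members, 2 are given by identifier, the one with the largest ratio and the one with the highest mean CPM, and the others by their ranks, ranges and counts. Ranks by CPM compare numbers of reads and not transcripts, because gene lengths were not used.

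The members came from a narrow path through the table. A mean of at least 1 CPM in the 3 deeper W20 IF libraries was reached by 15241 genes, of which 200 also had at least 2 times both other means. In 133 of these the lowest of the 3 W20 IF libraries lay above all 8 others, and in 51 of the 133 the W10 and W20 AL means were also within 1.5-fold. Of the 82 genes that missed only this last limit, 75 had the higher mean in W20 AL and 7 in W10. Within the 51 members the W20 AL mean was the higher one in 35. The members just inside each limit had a mean of 1.01 CPM, a ratio of 2.005 to the higher other mean, a lowest W20 IF library 1.00 times the highest other library, and W10 and W20 AL means 1.49-fold apart. The genes just outside had 0.993 CPM, 1.98, 0.996 and 1.54-fold. The limits do not mark a gap in the data, and membership depended on single libraries: 82 genes met the rule without W20 AL replicate 4, 79 without W20 IF replicate 2, and 22 when W20 IF replicate 4 was counted in, of which 12 are among the 51.

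Members were genes of low to moderate read number. Their mean in the 3 deeper W20 IF libraries ranged from 1.01 to 36.4 CPM with a median of 3.30 CPM. It stayed under 5 CPM in 34 members, under 2 CPM in 16, and reached 10 CPM in 9. The W10 means had a median of 1.13 CPM and the W20 AL means one of 1.02 CPM. Counts of single members in single W20 IF libraries ranged from 18 to 1228 with a median of 79, for which counting error alone is 11.3% of the value. All members together made up 0.0319% of the counts of the 3 W20 IF libraries and 0.0100% of those of the 8 others. Their median rank among the genes with a count in the W20 IF libraries was at the 50.7th percentile. Those genes go down to 0.0129 CPM, whereas the members needed 1 CPM and began at percentile 36.1. The genes tested in the models below, after a filter on low counts, had a median of 6.97 CPM there, above that of the members.

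The ratio to the higher of the W10 and W20 AL means ran from 2.005 to 9.50 with a median of 2.40. It was under 2.5 in 28 members and 3 or more in 11, so most members sat close to the lower limit. The lowest W20 IF library was a median of 1.44 times the highest of the 8 others, and this distance exceeded 1.5-fold in 22 members and 2-fold in 8. The plot of all members by library ranks them by this ratio, and single libraries within a row can depart from it.

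**Figure D1:**
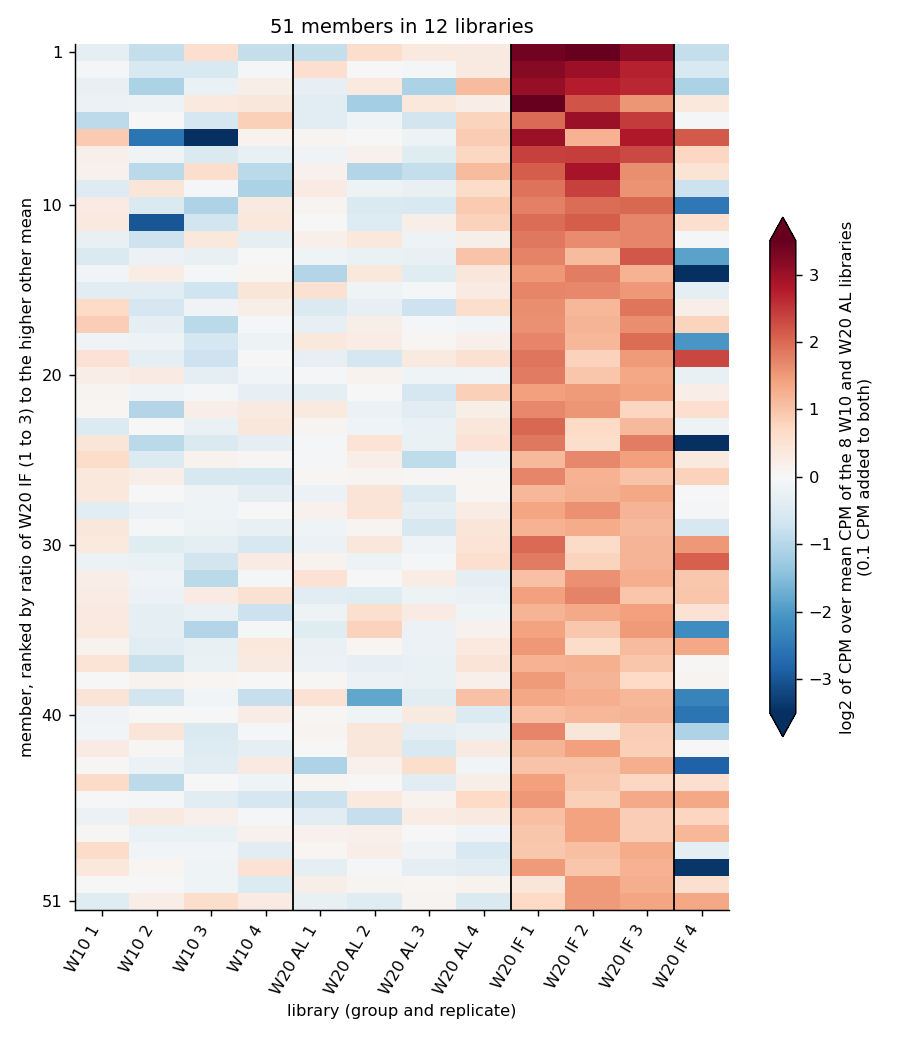
Level of the 51 members (rows, ranked by their ratio) in the 12 libraries (columns), as log2 of the CPM over the mean CPM of the 8 W10 and W20 AL libraries with 0.1 CPM added to both; values beyond the ends of the colour scale take its end colours. W20 IF replicates 1 to 3 are red in every row by the choice of members, whereas W20 IF replicate 4, which was not used for the choice, holds red, pale and blue rows.

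The edgeR model of the 11 deeper libraries describes the same contrasts. Genes were called at an adjusted p under 0.05 with a log2 fold change beyond 1 in either direction. The filter on low counts left 18277 genes, all 51 members among them. Against W20 AL, 48 members were called higher in W20 IF, where 2.63% of all genes tested were. Against W10, 47 members were called higher, where 1.66% of all genes were. Since both contrasts chose the members, nothing is read from these counts. The median log2 fold change of the members was 1.38 against W20 AL and 1.56 against W10, beside 0.02 and 0.00 over all genes tested. In total 165 genes were called higher in W20 IF than in both other groups, of which 46 are members (27.9% of the 165 and 90.2% of the members). Between W20 AL and W10, the contrast that the rule held to 1.5-fold, no member (0) was called in either direction, beside 0.93% of all genes. At an unadjusted p under 0.05 there were 2 members, 3.92%, beside 19.6% of all genes. DESeq2 also called 0 members, and 331 of 25475 genes. The limit of 1.5-fold in the rule keeps these counts of members low. All 3 deeper W20 IF libraries together lay above all 8 others in 4.7% of the genes tested, and in all members by the rule.

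The member with the largest ratio, ENSNFUG00015005483, was almost without reads outside the fasted fish. Its level was 0.0395, 0, 0.165 and 0 CPM in W10 replicates 1 to 4 and 0, 0.172, 0.125 and 0.120 CPM in W20 AL replicates 1 to 4. These 8 values rest on 0 to 4 counts each. In W20 IF replicates 1 to 3 it reached 1.75, 2.33 and 1.44 CPM, from 45, 60 and 36 counts, and the lowest of these was 8.38 times the highest of the 8 others. The means were 0.0511 ± 0.0781 (SD, n = 4) in W10, 0.104 ± 0.0734 (SD, n = 4) in W20 AL and 1.84 ± 0.449 CPM (SD, n = 3) in W20 IF. The fitted log2 fold change against W20 AL was 4.10 with an SE of 0.55, a value that depends on the prior count at such low counts. W20 IF replicate 4 had 0 counts for this gene, which allows up to 1.98 CPM and so cannot separate the levels of the other libraries.

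The member with the highest mean, ENSNFUG00015010302, was read in all libraries. In CPM it lay at 6.55, 12.2, 8.82 and 4.17 in W10 and at 11.04, 8.05, 7.56 and 14.1 in W20 AL. In W20 IF replicates 1 to 3 the levels were 34.3, 47.6 and 27.3 CPM, all above the 8 others, with W20 IF replicate 2 the highest. The means were 7.93 ± 3.40 (SD, n = 4) in W10, 10.2 ± 3.04 (SD, n = 4) in W20 AL and 36.4 ± 10.3 CPM (SD, n = 3) in W20 IF. The fitted log2 fold change was 1.83 with an SE of 0.34 against W20 AL, and 2.21 with an SE of 0.35 against W10. In W20 IF replicate 4 the gene had 8 counts or 5.29 CPM, within the range of the W10 and W20 AL libraries, where 55.1 counts correspond to the mean of the 3 deeper fasted libraries. By counting error alone, the shallow library was deep enough to separate the levels of this gene. The fitted log2 fold change of replicate 4 over the mean of W10 and W20 AL was -0.64 with an SE of 1.12. This SE is wide, and the value rests on 1 library.

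**Figure D2:**
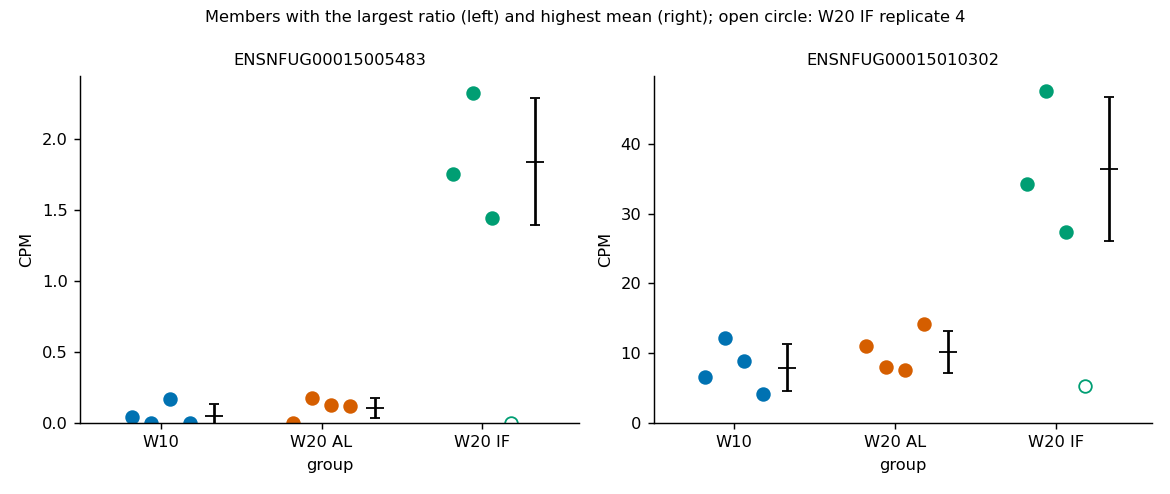
CPM of the 2 members given by identifier, ENSNFUG00015005483 with the largest ratio and ENSNFUG00015010302 with the highest mean, by group; circles are libraries, bars the mean ± SD, and the open circle is W20 IF replicate 4, which is left out of the mean. In both panels the 3 filled W20 IF circles lie above the rest, and the open circle is at 5.29 CPM on the right, among the W10 and W20 AL libraries, and at 0 on the left, where a count of 0 allows up to 1.98 CPM and so does not place it.

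The fasted fish differed among themselves. The highest of the 3 deeper W20 IF libraries was replicate 1 for 21 members, replicate 2 for 19 and replicate 3 for 11, so that each of the 3 fish was the highest for some members. Within a member the highest of these libraries was 1.05 to 4.19 times the lowest, with a median of 1.53, and 2 times or more in 12 members, 8 of which were highest in replicate 1. The median coefficient of variation of the members was 21.4% in W20 IF, 28.5% in W20 AL and 31.4% in W10, against 15.2%, 12.7% and 12.4% over all genes tested. The rule keeps fasted libraries high and the 8 others low, and so bears on all 3 values of the members. The members also had fewer reads, a median of 3.30 CPM in W20 IF beside 6.97 CPM over all genes tested. Counting error weighs more at low counts, and how much of the variation it makes up was not tested.

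Among the other 8 libraries the members were not spread evenly. W20 AL replicate 4 was the highest of the 8 for 18 members, 35.3%, whereas it was the highest for 9.08% of all genes tested. It lay above the mean of the other 7 libraries for 38 members, 74.5%, against 39.9% of all genes tested. The median ratio of the members to their mean over the 8 libraries was 1.24 in W20 AL replicate 4 and 0.849 to 1.08 in the other 7. The rule puts a ceiling on this library and no floor, and it is the same library whose removal raised the number of members from 51 to 82. Whether its tissue makeup differs was not tested, since no marker genes could be named.

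W20 IF replicate 4 is the only measure on the side of the fasted fish that the rule did not use. It lay above all 8 W10 and W20 AL libraries for 14 of the 51 members, 27.5%, beside 20.4% of all genes tested. It lay below all 8 for 12 members, beside 46.3% of all genes, and within their range for 25. By CPM from library totals, the count above is near the background, and the count below is under it. The rule held members low in these 8 libraries and did not do so for all genes. Members and all genes are thus not on an equal footing here, nor in the median ratio to the 8 given below. Replicate 4 reached the lowest of the other fasted libraries for 10 members, beside 48.2% of all genes tested, and exceeded the highest of them for 2, beside 4578 of the 18277 genes. It was nearer to the mean of those libraries than to the mean of the 8 others for 11 members, beside 50.9% of all genes. Members were chosen for high values in those libraries and all genes were not, so nothing is read from these shares. The median ratio of replicate 4 to the mean of the 8 others (0.1 CPM added) was 1.02 over the members and 0.850 over all genes tested. For the 3 deeper W20 IF libraries the median over the members was 3.02, 2.45 and 2.54.

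Depth limits what replicate 4 can show for most members. It held 0 counts for 13 members, 3 or fewer for 36, and a median of 2, where 4.99 counts correspond to the median member at the level of the other fasted libraries. Of the 14 members above all 8 others, some rested on 1 to 3 counts. When 1 draw thinned all 12 libraries to the total of replicate 4, the number of members above all 8 others was 6 for replicate 4 (11.8%, beside 9.21% of all genes tested), against 29, 31 and 30 for W20 IF replicates 1, 2 and 3, each taken singly. These 3 libraries had chosen the members and replicate 4 had not, so the numbers are not on an equal footing. The scale also matters, because the median of all genes in replicate 4 was 0.24 lower on the log2 scale than the 8 others under column sums, 0.14 lower under TMM and 0.12 lower under DESeq2 size factors. Under the latter scalings 19 and 20 of the 51 members lay above all 8, beside 25.8% and 27.0% of all genes tested. By the highest fasted library, replicate 4 was above all 8 for 8 of the 21 members highest in replicate 1, for 6 of the 19 highest in replicate 2 and for 0 of the 11 highest in replicate 3. Of the 12 members with the largest ratios it was above all 8 for 1, and it held no count for 4 of them. These small subsets were formed on values that the rule used, and shares over all genes were not taken for them. Nothing is read from their counts.

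The 9 members of at least 10 CPM had 4 to 66 counts each in replicate 4, and they split. Members under 10 CPM had up to 12 counts there, so some of them exceeded the lowest of the 9. It lay above all 8 others for 4 of them and within their range for 5. Over all genes tested, of any level, it was above all 8 in 20.4%, and a share for genes of like level was not taken. The third by mean CPM had 43.6 CPM (66 counts) in replicate 4 and 31.7, 14.9 and 24.0 CPM in W20 IF replicates 1 to 3, against 5.11 to 12.4 CPM in the W10 and W20 AL libraries. The fourth had 30.4 CPM (46 counts) beside 25.4, 12.3 and 16.4 CPM, against 4.49 to 10.7 CPM. For both, replicate 4 was the highest of all 12 libraries, and W20 IF replicate 2 the lowest of the fasted ones.

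The seventh and the ninth by mean CPM lay above the 8 others by less. The seventh had 11.2 CPM (17 counts) in replicate 4 and 20.5, 5.90 and 17.9 CPM in the other fasted libraries, and its W10 libraries spanned 0.0412 to 4.74 CPM. The ninth had 7.94 CPM (12 counts) beside 8.40, 12.4 and 9.94 CPM, against 2.06 to 5.77 CPM in the 8 others. By contrast, the first, the second, the fifth, the sixth and the eighth had replicate 4 within the range of the 8. The second had 36.4, 36.8 and 34.2 CPM in W20 IF replicates 1 to 3, the tightest of the 9, and 11.2 CPM (17 counts) in replicate 4, just under the highest of the others at 11.3 CPM. The eighth had 18.4, 7.37 and 10.1 CPM, and 3.97 CPM (6 counts) in replicate 4.

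**Figure D3:**
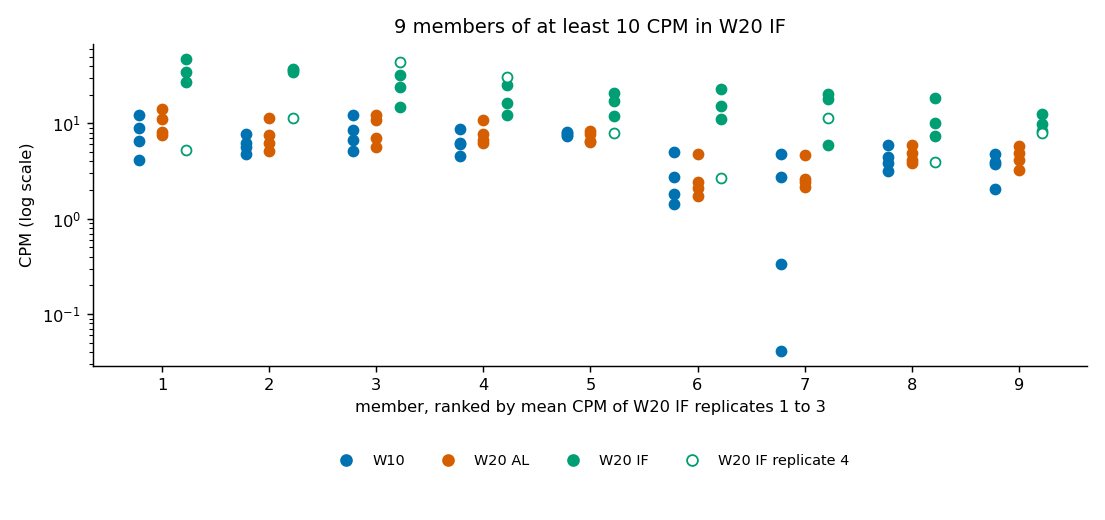
CPM on a log axis of the 9 members of at least 10 CPM in W20 IF, ranked by their mean; circles are libraries, coloured by group, and open circles are W20 IF replicate 4. The open circle is the highest of all for the third and the fourth, at 43.6 and 30.4 CPM, lies above the other groups for the seventh and the ninth, and among them for the other 5.

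In the edgeR model with replicate 4 as a level of its own, which assumes that this library varies like the rest, 48 of the 51 members passed the filter on low counts. Of these, 1 was called higher in replicate 4 than in the mean of W10 and W20 AL, beside 0.621% of the 18027 genes tested. It is the fourth by mean CPM, with a log2 fold change of 2.23, an SE of 0.52 and an adjusted p of 0.0472. The call was lost on leaving out W10 replicate 1 or 2 or W20 AL replicate 1, 2 or 3, after each of which 0 members were called. The third by mean CPM had a log2 fold change of 2.48 with an SE of 0.64 in the edgeR test and was not called there. At an unadjusted p under 0.05, 5 of 48 members were higher (10.4%), beside 6.94% of all genes. The log2 fold change was above 0 in 31 of 48 members and above 1 in 11, and shares over all genes were not taken for these limits. Its median was 0.30 over the members that passed and -0.09 over all genes. The members that did not pass the filter all had 0 counts in replicate 4 and are missing from these numbers. No member (0) was called lower, beside 162 of all genes tested. The standard error had a median of 1.12 in the members, against 0.29 in the contrast of W20 IF with W20 AL. The W10 and W20 AL libraries entered the rule, which held the members low there and did not limit all genes. Fold changes and shares of the members in replicate 4 can therefore lie too high beside those of all genes.

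The sum over the members split in the same way. The summed level of all members was 81.7 to 108.02 CPM in W10, 90.8 to 131 CPM in W20 AL and 358, 308 and 292 CPM in W20 IF replicates 1 to 3. Replicate 4 lay between, at 184 CPM from 278 counts, with an exact 95% Poisson interval of 163 to 207 CPM. At the mean of the 8 others 152 counts would be expected there, and 483 at the mean of the other fasted libraries. The 2 members with the most counts in replicate 4, the third and the fourth by mean CPM, made up much of this. They were singled out after their values were seen, and without them replicate 4 had 110 CPM from 166 counts, beside 72.1 to 108.4 CPM in the 8 others and 252 to 301 CPM in W20 IF replicates 1 to 3. The 9 members of at least 10 CPM summed to 2.36 times the mean of the 8 in replicate 4 and to 3.49 times in the other fasted libraries. The 42 members under 10 CPM summed to 1.248 and 2.84 times.

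**Figure D4:**
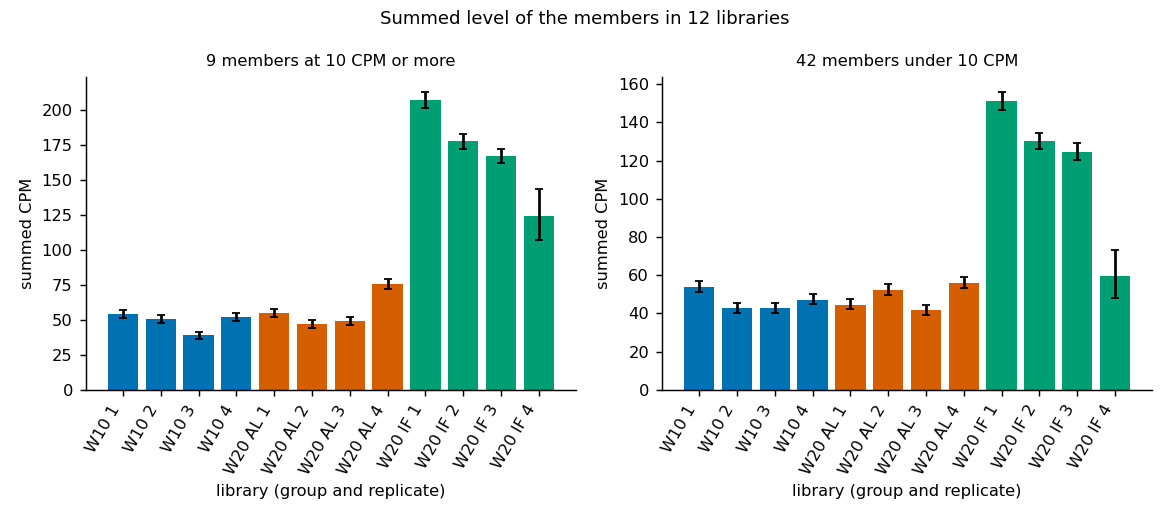
Summed CPM of the 9 members of at least 10 CPM (left) and of the 42 under 10 CPM (right) in each library; bars are single libraries, coloured by group, and error bars the exact 95% Poisson intervals, which cover counting error only. W20 IF replicate 4 lies between the groups on the left and near the W10 and W20 AL libraries on the right, and W20 AL replicate 4 is the highest library of its group in both panels.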

How the data were processed

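Reads of directional poly(A) libraries were trimmed (Trimmomatic), mapped (STAR) to Nfu_20140520 and assigned to Ensembl genes (featureCounts) by the authors, who deposited whole-number counts per gene without normalization or pooling. Versions and the treatment of reads that fit several genes are not given in the sources used here, so that counts of near-identical copies are uncertain. All 12 count columns were mapped to groups from the labels. Of 18 pairs of libraries of a group, 0 were identical, and the counts of every pair differed by more than sampling noise (chi-square per degree of freedom of at least 9.41).

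CPM was the count over the column sum. The members, the lists and the rule for the genes given by identifier were chosen with earlier results of these data known. That rule took the members with the largest ratio and the highest mean if no names could be matched. Whether intestinal marker lists or process lists hold members is not analysed here. Models were fitted with edgeR 4.0.16 (quasi-likelihood test, TMM, filterByExpr with minimum count 10 and minimum total 15, R 4.3.3), with Benjamini-Hochberg adjustment over all genes tested. W20 IF replicate 4 was left out of the model with 3 groups and was a level of its own in the other. The SE of a fitted log2 fold change was back-calculated, as its absolute value over the square root of the F value of the test. The models were tested on simulated data with known changes. These were larger than the fitted changes of most members, so the test does not cover smaller ones. Alternatives were other limits of the rule, other scalings and filters, DESeq2 1.42.0, thinning, a replicate block and each library left out in turn. Figures were drawn with matplotlib 3.10.9.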

Additional observations from a re-analysis of the deposited data

Results flagged for a closer look

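Among 18 sets of 4 libraries examined (the total counts, the 2 members given by identifier and the summed levels of the members, in each of 3 groups), 1 held a library far from its group. The total of W20 IF replicate 4 was 1512262 counts, whereas the other 3 libraries of the group had 24937470 to 25774912. Chance sets about 1 in 20 such groups apart.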

How the results depend on the processing

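The number of members, 51, was 163 at a ratio of at least 1.5 and 11 at 3, 89 at a minimum of 0.5 CPM and 17 at 5 CPM, 31 with a tighter limit between the W10 and W20 AL means and 133 without one, and 22 with all 12 libraries. Leaving out each library in turn gave 41 to 82, with 82 on removal of W20 AL replicate 4 and 79 on removal of W20 IF replicate 2. Each time 40 to 49 of the 51 were kept. Near-equal numbers can hold other genes: with 0.5 CPM added to each mean there were 50, of which 31 are among the 51. Other scalings gave 49 and 50. The 14 members higher in W20 IF replicate 4 than in all 8 others became 6 after thinning and 4 of 9 among those of at least 10 CPM. On leaving out each of the 8 others the number was 14 to 17, and this step can only keep or raise it. The number of members called in replicate 4 fell without the filter on low counts and rose in DESeq2. On leaving out single libraries it fell or stayed the same. On leaving out each library, members called higher in W20 IF numbered 37 to 49 against W20 AL, beside 313 to 523 of all genes. Against W10 they numbered 34 to 47, beside 198 to 314 of all genes. Between W20 AL and W10 there were 0 throughout, beside 64 to 284 of all genes on leaving out each library. These fits tested 18157 to 18577 genes. The rule used these contrasts, so nothing is read from the counts of members. The log2 fold change against W20 AL stayed between 3.67 and 4.41 for ENSNFUG00015005483 and between 1.57 and 2.04 for ENSNFUG00015010302 on leaving out each library. With all 12 libraries ENSNFUG00015005483 did not pass the filter. The cause of these differences was not tested where the setting itself does not give it.

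The deviations of libraries of the same replicate number had correlations of -0.20 to 0.13 in 10 pairs, 1 of them over 0.1. For libraries of other numbers they were -0.25 to 0.32 in 30 pairs, 7 of them over 0.1. These correlations gave no sign of a pairing by number, but so few cannot exclude one. With a replicate block, 45 members were called for the contrast of W20 IF with W20 AL, beside 398 of the 18277 genes tested. For that with W10 there were 41, beside 289, and between W20 AL and W10 there were 0, beside 124. The rule used these contrasts, so nothing is read from the counts of members. The log2 fold changes against W20 AL were 4.01 and 1.77 for the 2 members given by identifier.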
